A study of Mus musculus with 36 samples.

Results

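Splicing factors were described here as every gene on the array whose name in the scanner files starts with Srsf, Hnrnp, Sf3a, Sf3b or Snrp. The rule gave 52 of 37074 gene names and 120 of 56605 probes, namely 20 Hnrnp, 12 Snrp, 11 Srsf and 9 Sf3a or Sf3b genes. Names alone decided which genes were taken, though the rule was chosen with earlier results of these data known. Each gene was read from its brightest probe over the 36 arrays. Liver RNA came from 36 male C57Bl/6J mice, 6 in each of 6 groups, and 1 liver was hybridised to 1 single-colour (Cy3) Agilent array. The mice were controls (CTRL) or lacked the triglyceride lipase ATGL in white adipose tissue (AAKO), so that the knockout was in the fat depots and the liver was the tissue read. Mice of each genotype had free food, were fasted for 24 h, or had food and 1 dose of CL316243 at 3 mg/kg, by gavage in carboxymethyl cellulose at ZT10 (Zeitgeber time, in hours from lights on). CL316243 is an agonist of the β3 adrenergic receptor, which drives fat breakdown in adipocytes. All mice were killed at ZT16, in the dark phase, and a gavage is given in the labels for the CL316243 groups only. The labels name neither the promoter used to remove ATGL nor the age of the mice, and since ATGL (Pnpla2) was removed outside the liver, its signal there does not check the genotype labels. The fed groups belonged to a second experiment and the fasted and CL316243 groups to the first, so condition against fed and experiment cannot be told apart, while the genotype comparisons and fasted against CL316243 each lie within 1 experiment.

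Before translation, introns are removed from pre-mRNA by the spliceosome, which is built from small nuclear ribonucleoproteins (snRNPs) that each hold a small nuclear RNA and a ring of Sm or related LSm proteins. The SF3a and SF3b complexes are parts of the U2 snRNP and hold it on the intron's branch site. SR proteins, encoded by Srsf genes, bind exons and mostly favour their inclusion, while the heterogeneous nuclear ribonucleoproteins (hnRNPs) coat nascent RNA and often act against inclusion. Many SR and hnRNP genes control their own mRNA through alternative exons or 3′ ends, so a probe in one stretch of such a gene need not stand for its other transcripts. Insulin signalling, which falls in liver during a fast, is known to change the phosphorylation of SR proteins.

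Because an array reads only the stretch a probe matches, the first 30 of the 60 bases are shown for probes on which the results turn. They are written 5′ to 3′ in the sense of the mRNA, with mm9 positions of the whole probe from the scanner files. The probes of the SR protein genes Srsf7 (chr17:80600741-80600800, minus strand), Srsf1 (chr11:87864550-87864609, plus strand) and Srsf3 (chr17:29178485-29178544, plus strand) carry the largest genotype differences of that family.
Srsf7: ggatcatcaaccatctaatcaaaatggatc
Srsf1: ataggatagggaggatgaattaccaggatt
Srsf3: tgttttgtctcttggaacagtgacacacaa
Hnrnpa1 has 3 tested probes on the plus strand of chromosome 15 that did not move together, in the order chr15:103072642-103072701, chr15:103075254-103075313 (the brightest) and chr15:103076785-103076844.
Hnrnpa1 upstream probe: aaatgccatactgtgaatggccacaactgt
Hnrnpa1 brightest probe: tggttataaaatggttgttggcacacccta
Hnrnpa1 downstream probe: ctgctatgaggcttaactgctgtcataaaa
Sf3b1, on the minus strand of chromosome 1, has 4 tested probes, and the 2 shown are the brightest (starting at 55060021) and the most downstream one (starting at 55042223), which moved the other way.
Sf3b1 brightest probe: gatgacattcagtactttgattaactattg
Sf3b1 downstream probe: acacttctcaactaagaccttttctttagc

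Values are log2 signal relative to the array's 75th percentile, which is set to 0, so 1 unit is a doubling of signal, and levels of different probes are not compared. Each array detected 33130 to 37200 probes clearly over its background, and no non-control spot was saturated. Of the 52 genes, 51 passed the filter of being well above background on at least 5 of 6 arrays of a group. Srsf12 did not pass: its brightest probe was well above background on 0 of 36 arrays. A gene was called different at a Benjamini-Hochberg adjusted p under 0.05 in limma over the 24102 genes tested, two-sided, and "higher", "lower", "rose" and "fell" are used for called genes. Errors beside log2 fold changes are standard errors of the fit, and beside group values the lowest, median and highest of 6 mice are given. Whether group ranges overlap is stated for members only. The share of all genes with ranges apart was not computed, so ranges apart describe the named gene and do not set members off from other genes. On the first principal component of all genes the AAKO fasted livers lay at 102 to 110 and the CTRL fasted livers at 16.7 to 28.7, except CTRL fasted replicate 2 at 80.9. Where leaving out that array gave the lowest or highest count of called members, the count is also given without it, as is the Hnrnpu difference.

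In fed mice the genotype made no called difference in any splicing factor. Of 51 genes 0 were higher and 0 lower in AAKO by limma, where 0.0415% of all genes were called higher and 0.0373% lower, and 5 members had an unadjusted p under 0.05. The median member differed by -0.04 on the log2 scale and the median gene by 0.00. The member farthest from 0 was Srsf3, an SR protein also known for mRNA export, at -0.33 ± 0.11 (adjusted p = 0.47).

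After the 24 h fast, splicing factors differed by genotype in both directions: 12 were higher and 16 lower in AAKO. Over all genes 21.3% were called higher and 28.1% lower, so 28 of 51 members called was near the background of this comparison. The median member stood at -0.04, as did the median gene. Leaving out CTRL fasted replicate 2 gave 30 members called. With arrays scaled to their median the split was 15 higher and 13 lower (all genes 5583 and 6062, against 5125 and 6764). With the mean over all probes of a gene it was 18 and 16, without a count over all genes. In bulk liver, fewer cells of a type and less RNA per cell cannot be told apart, and 4 of 7 neutrophil and 4 of 7 cycling cell markers were also higher in fasted AAKO, with values given after the gene lists.

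Among the 10 SR protein genes tested, 2 rose and 5 fell in fasted AAKO. Srsf7, an SR protein with a zinc knuckle that binds RNA and takes part in mRNA export, had values of 1.56, 2.07 and 2.46 (lowest, median, highest) in CTRL fasted livers and 2.92, 3.07 and 3.25 in AAKO fasted livers. Every AAKO fasted liver lay above every liver of the other 5 groups. It was 2.05-fold higher (log2 1.04 ± 0.09, adjusted p = 1.1e-10), the largest rise among the members. Within wash batch 1 alone the difference was 1.19 and within wash batch 2 alone 0.89. Srsf5, another SR protein that acts on exon enhancers, ran from 4.03 to 4.41 in CTRL and from 4.46 to 4.75 in AAKO, with no overlap, and rose by 0.33 ± 0.08.

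The SR genes that fell were led by Srsf1, the archetype of the family, which binds purine-rich exon enhancers. Its values were 0.92, 1.38 and 1.43 in CTRL fasted livers and 0.27, 0.51 and 0.70 in AAKO fasted livers, which do not overlap. It was 1.71-fold lower (log2 -0.78 ± 0.09, adjusted p = 4.7e-08), with -0.71 and -0.84 in wash batches 1 and 2. Srsf6 had 2.89, 3.25 and 3.40 in CTRL against 2.48, 2.69 and 2.79 in AAKO, again apart, and fell by 0.56 (± 0.08, adjusted p = 3e-07). Srsf2, which marks nuclear speckles, went from a median of 3.44 to 3.00 with overlap at 3.16 to 3.24 and fell by 0.47 (± 0.10, adjusted p = 0.00019). Srsf9 fell by 0.20 and Srsf3 by 0.29 (± 0.11, adjusted p = 0.036). The Srsf3 call was lost in 5 of the other settings and when AAKO fasted replicate 1 or 3 or CTRL fasted replicate 1, 3, 4 or 6 was left out, with values of -0.29 to -0.20. Srsf4 (0.19), Srsf10 (-0.08) and Srsf11 (-0.06) were not called.

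**Figure D1:**
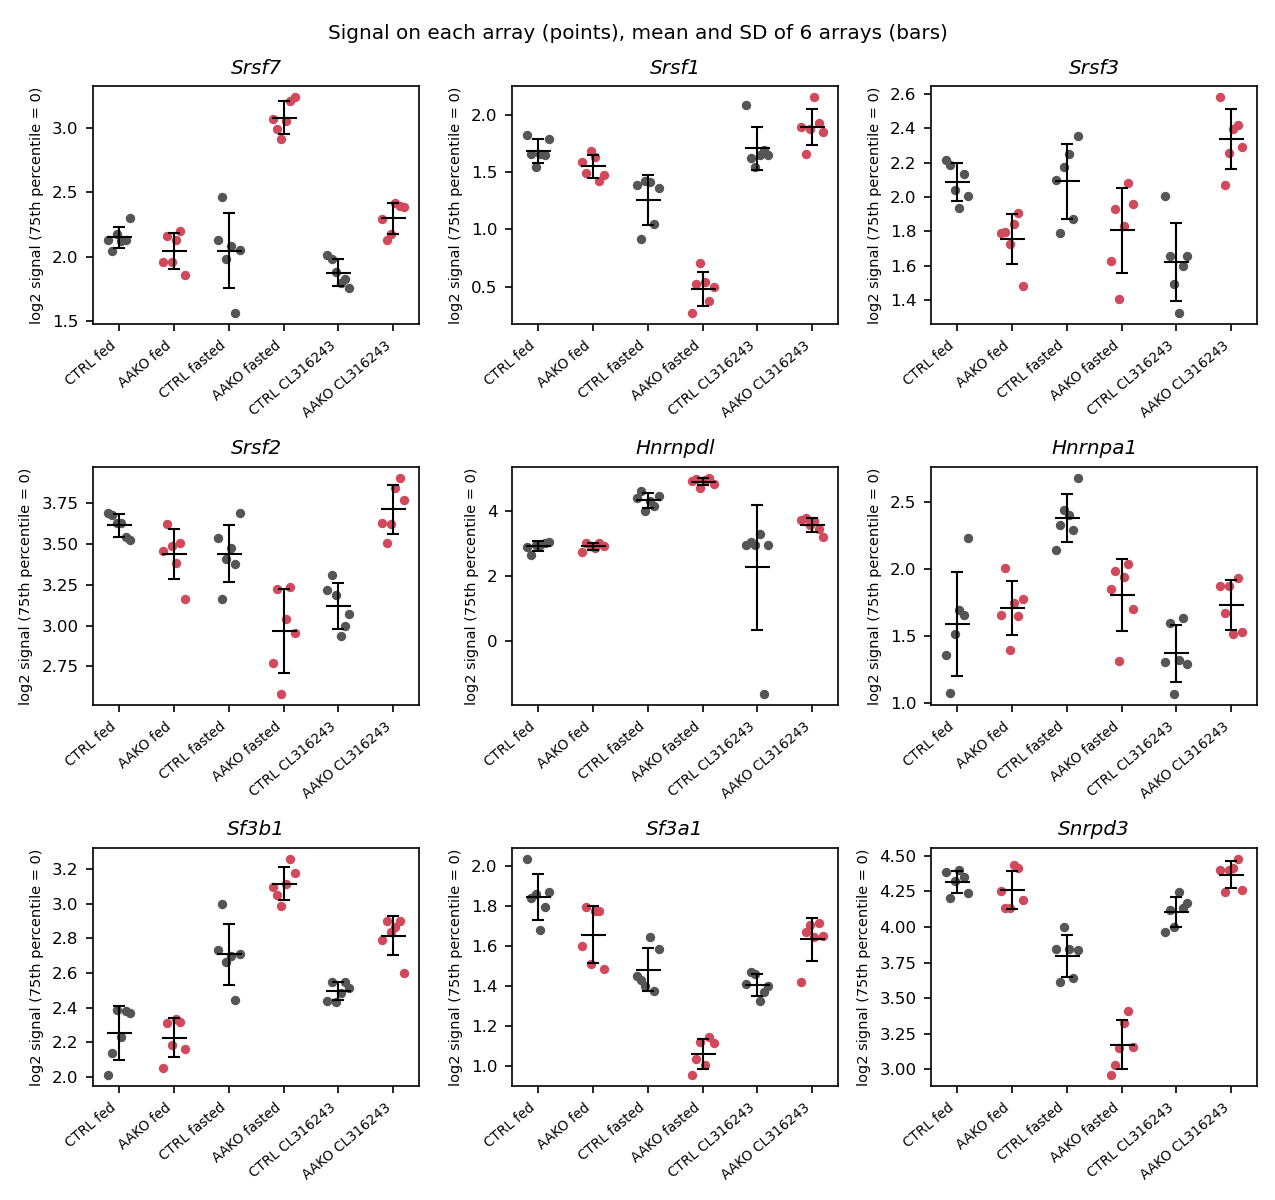
Points are the log2 signal of each of the 36 arrays for 9 genes by group (CTRL grey, AAKO red), with the mean and SD of 6 arrays as bars; 0 is the array's 75th percentile. Srsf7 in AAKO fasted livers, 2.92 to 3.25, lies above all other groups, and the 1 Hnrnpdl value of -1.64 is CTRL CL316243 replicate 5.

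The 20 hnRNP genes held 2 higher and 6 lower in fasted AAKO. Hnrnpab, an hnRNP that also binds single-stranded DNA, rose by 0.32 (± 0.06, adjusted p = 9.6e-05) and Hnrnpa0, which binds AU-rich mRNA, by 0.21. Hnrnpul2, a relative of the nuclear scaffold protein hnRNP U, had -0.09, 0.39 and 0.42 in CTRL fasted livers and -0.67, -0.39 and -0.04 in AAKO. The groups overlapped only at the lowest CTRL and the highest AAKO liver, and the gene fell by 0.65 (± 0.09, adjusted p = 6.9e-07). On its second probe the difference was 0.12 and was not called.

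The probe that represents Hnrnpa1, a repressor that binds exon and intron silencers, had 2.15, 2.37 and 2.68 in CTRL fasted livers and 1.32, 1.90 and 2.04 in AAKO. The ranges do not overlap and the fall was 0.58 (± 0.14, adjusted p = 0.0012), with -0.81 and -0.35 in wash batches 1 and 2, the latter not called (adjusted p = 0.17). Both of its other probes rose, as described with the probes. This gene has near-identical processed copies in the genome, so its values are uncertain. Hnrnpr fell by 0.48 (± 0.13, adjusted p = 0.0033), Hnrnpa3 by 0.36, Hnrnpl by 0.25 and Hnrnpk, which binds C-rich RNA, by 0.19. On the first probe of Hnrnpl the sign was opposite. Hnrnpa2b1, which recognises purine-rich transport and silencer elements, stood at -0.00 ± 0.07 and was not called, nor were Hnrnpc, Hnrnpf, Hnrnph1, Hnrnph2, Hnrnph3, Hnrnpll, Hnrnpm and Hnrnpul1, which ran from -0.24 to 0.13.

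The calls of 3 further hnRNP genes depended on 1 array each. Hnrnpdl, a close relative of Hnrnpd that binds AU-rich RNA, had 3.98, 4.34 and 4.60 in CTRL fasted livers and 4.70, 4.93 and 5.00 in AAKO, without overlap, yet the difference of 0.58 ± 0.44 was not called (adjusted p = 0.29). CTRL CL316243 replicate 5 read -1.64 on the gene's only probe while the other 5 livers of its group read 2.94 to 3.29. Without that array the fasted genotype difference was 0.58 ± 0.10 (adjusted p = 8.1e-06). Hnrnpd, which directs the decay of AU-rich mRNA, stood at 0.24 ± 0.11 (adjusted p = 0.074) and at 0.24 with an adjusted p of 0.042 without CTRL fed replicate 1. Hnrnpu stood at -0.36 ± 0.19 (adjusted p = 0.12) and at -0.51 ± 0.18 (adjusted p = 0.019) without CTRL fasted replicate 2. Another Hnrnpu probe, nearly as bright, was called the other way, as given with the probes, and the first Hnrnpu probe stood at 0.09. The direction for this gene is therefore uncertain.

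The SF3 genes held 5 higher and 2 lower in fasted AAKO, where 21.3% of all genes were called higher and 28.1% lower. The SR genes (2 higher and 5 lower of 10) and hnRNP genes (2 and 6 of 20) leaned lower, as all genes did. The families were not tested against each other or against all genes. Sf3b1, the largest SF3b subunit, which clamps the branch site, had 2.44, 2.70 and 3.00 in CTRL and 2.99, 3.10 and 3.26 in AAKO, with 1 CTRL liver above the lowest AAKO liver. It rose by 0.41 ± 0.08 (adjusted p = 4e-05), and by 0.47 and 0.35 in wash batches 1 and 2. Sf3b4, an RNA-binding SF3b subunit, rose by 0.32, with CTRL at 1.97 to 2.34 and AAKO at 2.39 to 2.64. Sf3a2 (0.20), Sf3b2 (0.18) and Sf3b5 (0.12) rose less. Sf3a2 lost its call in 5 of the other settings and without AAKO fasted replicate 2, 4 or 5 or CTRL fasted replicate 4 or 5, at 0.15 to 0.20.
The Sf3a1 probe read 1.38, 1.44 and 1.64 in CTRL fasted livers and 0.96, 1.08 and 1.15 in AAKO. This SF3a scaffold subunit fell by 0.42 (± 0.07, adjusted p = 3.4e-06), with no overlap. Sf3b6, the small subunit that touches the branch point adenosine, fell by 0.33 on its brightest probe, and its second probe, well above background on 18 of 36 arrays, was not called. Sf3a3 (0.07) and Sf3b3 (0.10) were not called.

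Of the 12 Snrp genes 3 rose and 3 fell in fasted AAKO. The risers were Snrpb, which encodes the Sm proteins B and B′, and the U2-specific proteins Snrpb2 and Snrpa1. Snrpb had 4.31, 4.41 and 4.51 in CTRL against 4.68, 4.76 and 4.81 in AAKO, apart by group, and rose by 0.34 ± 0.06 (adjusted p = 7.1e-06). Snrpb2 rose by 0.25 and Snrpa1 by 0.21.
The 3 that fell were the Sm D genes. Snrpd3 had 3.61, 3.84 and 4.00 in CTRL and 2.96, 3.16 and 3.41 in AAKO, apart by group, and fell by 0.62 (± 0.08, adjusted p = 5.1e-08). Snrpd2 fell by 0.34 and Snrpd1 by 0.24 (± 0.08, adjusted p = 0.015), the former with no overlap between genotypes. The U1 protein genes Snrpa (-0.17) and Snrpc (0.07), the Sm genes Snrpe (0.04), Snrpf (-0.04) and Snrpg (-0.02), and the imprinted Snrpn (-0.23 ± 0.14, and -0.07 without AAKO fasted replicate 3) were not called.

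After CL316243 the picture by genotype was one-sided. Of 51 members 24 were higher and 1 lower in AAKO, where 13.5% of all genes were called higher and 11.3% lower, so a larger share of members than of all genes rose and a smaller share fell, without a test of that difference. The median member differed by 0.17 and the median gene by 0.03. The split was 17 higher and 1 lower with arrays scaled to their median, and 19 and 2 in the authors' deposited table. In a fit limited to the groups of the comparison it was 16 and 1. Counts over all genes under these settings are not given, so these splits have no background beside them.

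**Figure D2:**
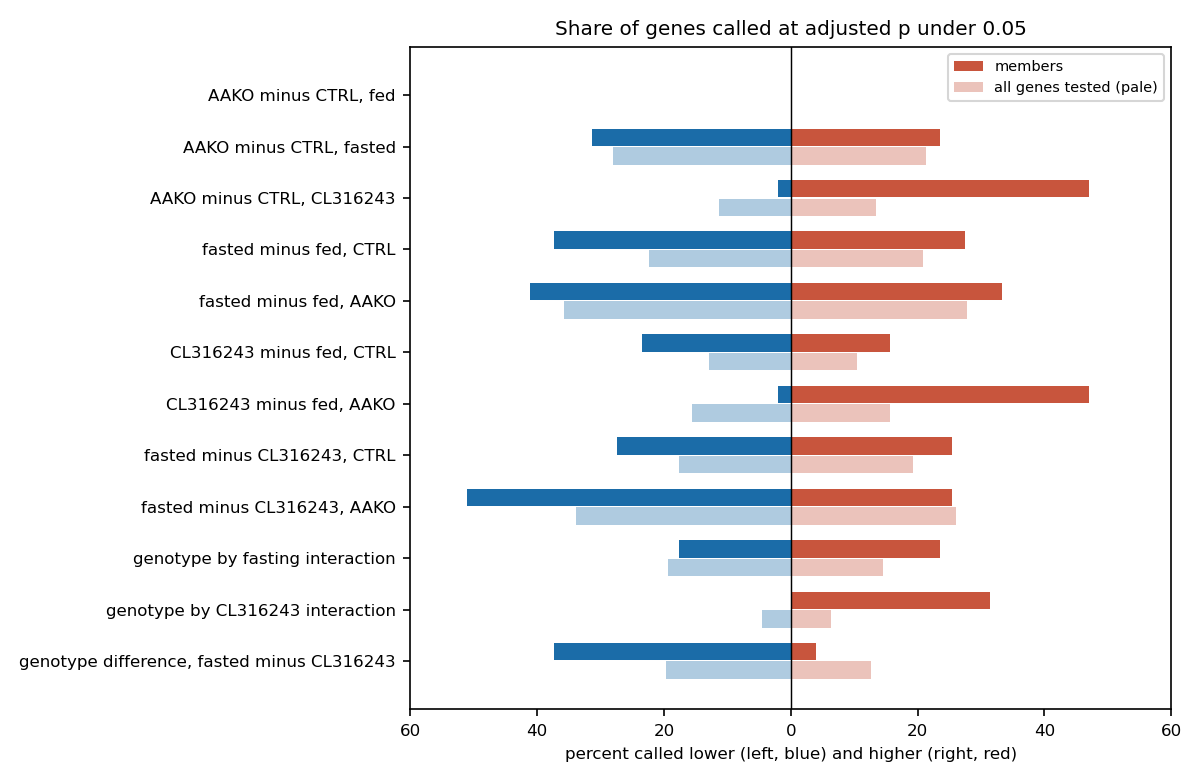
Solid bars are the percent of 51 splicing factor genes and pale bars the percent of all 24102 genes called higher (right) or lower (left) at an adjusted p under 0.05 in each of 12 comparisons. For AAKO against CTRL after CL316243, 24 members are higher and 1 lower against 13.5% and 11.3% of all genes; after fasting the members resemble all genes.

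All 9 SF3 genes were higher in AAKO after CL316243, by 0.15 to 0.45, with a median of 0.31. Sf3a3 had 2.71, 2.76 and 2.87 in CTRL CL316243 livers and 3.01, 3.25 and 3.37 in AAKO. Each AAKO liver lay above each CTRL liver, and the gene was 1.37-fold higher (log2 0.45 ± 0.07, adjusted p = 6.9e-06), with 0.44 and 0.46 in wash batches 1 and 2. Sf3b4 rose by 0.42, Sf3a2 by 0.35, Sf3b1 by 0.33, Sf3b6 by 0.31, Sf3a1 and Sf3b2 by 0.23, Sf3b3 by 0.16 and Sf3b5 by 0.15. Sf3b3 lost its call in 8 of the other settings and Sf3b5 in 3, with the sign kept in each.

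Of the 10 SR genes 3 rose in AAKO after CL316243 and 0 fell. Srsf3 had 1.32, 1.63 and 2.00 in CTRL and 2.07, 2.35 and 2.58 in AAKO, with no overlap, and was 1.65-fold higher (log2 0.72 ± 0.11, adjusted p = 1.7e-05). Its second probe rose by 0.44 ± 0.13 (adjusted p = 0.011). Srsf2 had 2.94, 3.13 and 3.31 in CTRL and 3.51, 3.70 and 3.91 in AAKO and was 1.51-fold higher (0.59 ± 0.10, adjusted p = 4.2e-05), but its second probe stood at -0.16 and was not called. Srsf7 went from 1.75, 1.85 and 2.01 to 2.13, 2.34 and 2.41 and was 1.35-fold higher (0.44 ± 0.09, adjusted p = 0.00071). For these 3 genes the CTRL and AAKO ranges stood apart, which was not counted for all genes. Srsf1 stood at 0.19 ± 0.10 (adjusted p = 0.15), and at 0.26 ± 0.09 (adjusted p = 0.034) without CTRL CL316243 replicate 1. Srsf6 (0.17), Srsf5, Srsf9 (both 0.11), Srsf11 (0.03), Srsf10 (-0.09) and Srsf4 (-0.16) were not called.

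Among hnRNP genes 6 rose and 1 fell in AAKO after CL316243. Hnrnpd had 2.11, 2.33 and 2.35 in CTRL and 2.36, 2.75 and 2.93 in AAKO, which just fail to touch, and rose by 0.41 ± 0.11 (adjusted p = 0.0058). Hnrnpdl rose by 1.35 ± 0.44 (adjusted p = 0.023) with the outlying CTRL array and by 0.54 ± 0.10 (adjusted p = 0.00021) without it. Hnrnph2, which binds G-runs, and Hnrnpul1 rose by 0.28 each, Hnrnpa2b1 by 0.25 and Hnrnpab by 0.21. Hnrnpl, which binds CA repeats, had 2.93, 2.98 and 3.11 in CTRL and 2.65, 2.74 and 2.87 in AAKO, apart by group, and fell by 0.25 (± 0.06, adjusted p = 0.0042). It fell by the same amount in fasted AAKO. Hnrnpa1 (0.37 ± 0.14, adjusted p = 0.058), Hnrnpk (-0.04) and Hnrnpu (-0.07) were not called, nor were Hnrnpa0, Hnrnpa3, Hnrnpc, Hnrnpf, Hnrnph1, Hnrnph3, Hnrnpll, Hnrnpm, Hnrnpr and Hnrnpul2, which ran from -0.23 to 0.17.

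Of the Snrp genes 6 rose in AAKO after CL316243 and 0 fell. Snrpd1, an Sm ring protein, had 2.40, 2.51 and 2.58 in CTRL and 2.55, 2.97 and 3.09 in AAKO, overlapping only at the lowest AAKO liver, and rose by 0.40 ± 0.08 (adjusted p = 0.00055). Snrpa, the U1 protein that binds a stem-loop of U1 RNA, rose by 0.34 ± 0.09 (adjusted p = 0.0039). The ranges of Snrpd3, 3.96 to 4.24 in CTRL and 4.25 to 4.48 in AAKO, did not overlap, and it rose by 0.26. Snrpf and Snrpc rose by 0.22 and Snrpg by 0.17, of which Snrpf and Snrpg lost the call in 5 of the other settings. Snrpb (0.15), Snrpb2 (0.17), Snrpa1 (-0.01), Snrpd2 (0.02), Snrpe (0.06) and Snrpn (0.04) were not called.

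**Figure D3:**
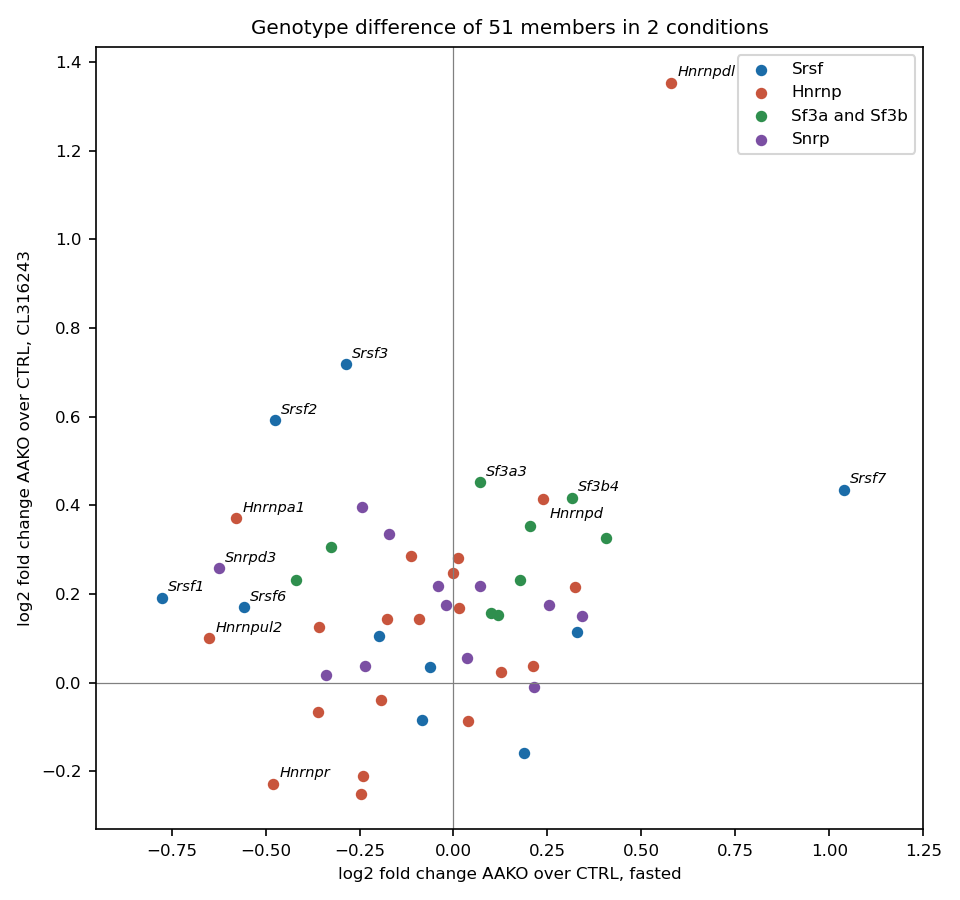
Each point is 1 of 51 genes, coloured by family, with the AAKO over CTRL log2 fold change in fasted mice on the x axis and after CL316243 on the y axis. Srsf7 lies at 1.04 and 0.44; Srsf1 (-0.78, 0.19), Snrpd3 (-0.62, 0.26) and Srsf2 (-0.47, 0.59) lie left of 0 and above it.

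The genotype difference itself differed between fasted and CL316243 livers for 21 members, a direct test within 1 experiment. As a signed value, the difference was more positive after fasting for 2 genes and more negative for 19, where 12.7% and 19.7% of all genes were called. More negative does not mean smaller in size. Srsf2 (-1.07 ± 0.14, adjusted p = 1e-06), Srsf3 (-1.005 ± 0.16, adjusted p = 1.4e-05) and Srsf1 (-0.97 ± 0.13, adjusted p = 2e-06) had the most negative values together with Hnrnpa1 at -0.95 on its brightest probe. Snrpd3 (-0.88), Hnrnpul2 (-0.75), Srsf6 (-0.73), Sf3a1 (-0.65), Snrpd1 (-0.64), Sf3b6 (-0.63) and Snrpa (-0.51) followed. Srsf2, Srsf3, Sf3a1, Sf3b6, Snrpd1 and Snrpd3 were called lower in fasted AAKO and higher in AAKO after CL316243. The 2 positive values were Srsf7 (0.60 ± 0.13, adjusted p = 0.00062) and Srsf4 (0.35). The split was 5 and 16 in the authors' deposited table, 4 and 14 with median scaling, 4 and 16 with normexp background correction, and 6 and 16 with the mean over all probes. For all genes it was 3049 and 4741, and 4102 and 3384 in the authors' deposited table. The other settings are given for members only.

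Set against the fed genotype difference, fasting changed the genotype difference of 12 members upward and 9 downward, with 14.5% and 19.4% of all genes called. Srsf7 was the largest at 1.15 ± 0.13 (adjusted p = 7.6e-08). Hnrnpa1 (-0.70), Srsf1 (-0.64 ± 0.13) and Snrpd3 (-0.57 ± 0.11) were the most negative. With the mean over all probes of a gene the split was 18 and 8, and without CTRL fasted replicate 2 it was 13 and 13. Both are given for members only, without counts over all genes.
CL316243 changed it upward for 16 members and downward for 0, with 6.39% and 4.53% of all genes called. Srsf3 (1.05 ± 0.16, adjusted p = 4e-05), Srsf2 (0.77 ± 0.14) and Hnrnpd (0.60) were the largest called, and 8 of the 9 SF3 genes were among the 16. Hnrnpdl stood at 1.37 without a call, and was called at 0.55 (adjusted p = 0.0087) for CL316243 and at 0.60 (adjusted p = 0.00091) for fasting without CTRL CL316243 replicate 5. Srsf1 was called at 0.40 (adjusted p = 0.036) for CL316243 without CTRL CL316243 replicate 1. The downward count was 1 in the authors' deposited table, given for members only. Both tests use the same fed livers and set 1 experiment against the other.

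Between fed and fasted CTRL livers splicing factors differed in both directions: 14 rose and 19 fell, where 20.9% of all genes rose and 22.4% fell. Fed livers belonged to the other experiment, so in every comparison with fed the condition and the experiment cannot be told apart. In AAKO livers 17 rose and 21 fell, with 27.8% and 35.7% of all genes called. In CTRL the split was 15 and 13 in the authors' deposited table, 10 and 23 with median scaling and 16 and 13 with quantile normalization. For all genes it was 5751 and 4494, 4073 and 6731, and 5190 and 5288 there, against 5027 and 5409. In AAKO it was 22 and 18 with the mean over all probes, given for members only. In CTRL 29 members were called when CTRL fasted replicate 2 was left out.

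The SR gene that rose most with fasting in CTRL was Srsf5, from 3.31, 3.52 and 3.64 in fed CTRL to 4.03, 4.34 and 4.41 in fasted CTRL, a rise of 0.80 ± 0.08 (adjusted p = 3e-09). In AAKO it went from 3.30, 3.52 and 3.65 to 4.46, 4.60 and 4.75 and rose by 1.12 ± 0.08 (adjusted p = 3.6e-13). No fasted liver of either genotype overlapped its fed group. Srsf7 rose in AAKO by 1.04 ± 0.09 (adjusted p = 2.2e-11) and stood at -0.11 in CTRL. Srsf1 fell by 0.43 in CTRL and by 1.07 (± 0.09, adjusted p = 2e-11) in AAKO, from fed values of 1.54 to 1.82 and 1.42 to 1.69. Srsf10, a splicing repressor when dephosphorylated, fell by 0.34 and 0.53, Srsf9 by 0.26 and 0.45, and Srsf4 by 0.49 in CTRL with -0.12 in AAKO. Srsf2 and Srsf6 fell by 0.47 each in AAKO and stood at -0.17 and -0.05 in CTRL.

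Among hnRNP genes 8 rose and 6 fell with fasting in CTRL, and 7 rose and 7 fell in AAKO. Hnrnpl went from 2.23, 2.56 and 2.64 in fed CTRL to 3.04, 3.35 and 3.49 in fasted CTRL, without overlap, a rise of 0.81 ± 0.06 (adjusted p = 9.9e-12), and rose by 0.59 in AAKO. Hnrnpd rose from 1.84, 2.39 and 2.67 to 2.96, 3.19 and 3.24 in CTRL (0.78 ± 0.11, adjusted p = 7e-07) and by 1.21 ± 0.11 in AAKO (adjusted p = 3.6e-11). Its relative Hnrnpdl went from 2.65, 2.95 and 3.05 to 3.98, 4.34 and 4.60 in CTRL, apart by group. This was a rise of 1.40 ± 0.44 (adjusted p = 0.01), or ± 0.10 (adjusted p = 9e-13) without the outlying CL316243 array. In AAKO Hnrnpdl rose by 1.99. Hnrnpa0 rose by 0.74 ± 0.06 in CTRL and 1.02 ± 0.06 in AAKO (adjusted p = 8.4e-11 and 1.1e-14).
Hnrnpa1 rose by 0.79 in CTRL and stood at 0.10 in AAKO. Hnrnpr rose by 0.62 in CTRL, whose fed group held 1 liver at 0.36 and 5 at 1.13 to 1.44. Hnrnpc, which binds uridine tracts, went from 4.24 to 4.57 in fed CTRL to 3.55 to 4.13 in fasted CTRL and fell by 0.55 (± 0.08, adjusted p = 2.2e-06), and by 0.69 in AAKO. Hnrnpul2 fell by 0.50 and 0.99, Hnrnpa3 by 0.23 and 0.58, Hnrnpf by 0.33 and 0.29 and Hnrnph1 by 0.28 and 0.33. Hnrnpul1 rose by 0.27 and 0.35 and Hnrnpa2b1 by 0.22 and 0.24. Hnrnpab fell by 0.22 in CTRL and rose by 0.19 in AAKO. Hnrnph3 fell by 0.48 and Hnrnpk by 0.19 in AAKO without a call in CTRL, which does not by itself make the genotypes differ. Hnrnpll, Hnrnpm and Hnrnpu were called in neither genotype.

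**Figure D4:**
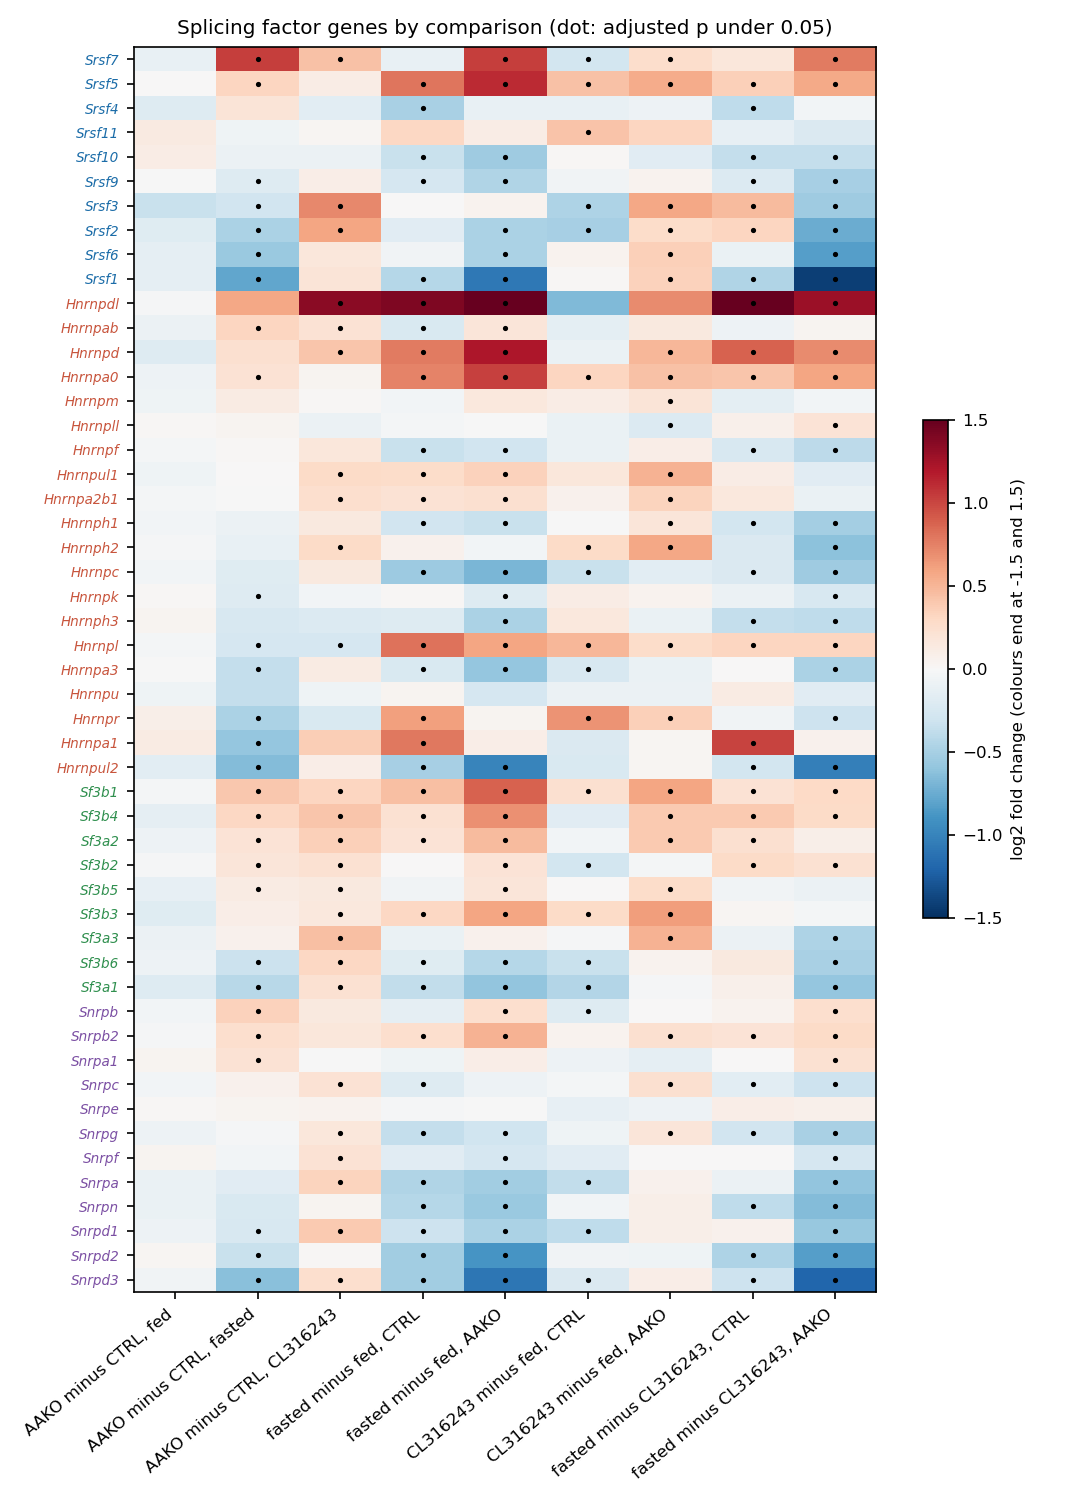
Rows are the 51 tested genes by family and columns 9 comparisons; colour is the log2 fold change (red higher, blue lower, ending at -1.5 and 1.5) and a dot marks an adjusted p under 0.05. The fed genotype column has 0 dots and the CL316243 genotype column 25, of which 24 are red.

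With fasting, the SF3 genes split 4 up and 2 down in CTRL and 6 up and 2 down in AAKO. Sf3b1 went from 2.01, 2.30 and 2.39 in fed CTRL to 2.44, 2.70 and 3.00 in fasted CTRL (0.45 ± 0.08, adjusted p = 9.9e-06), and rose by 0.89 ± 0.08 in AAKO (adjusted p = 8.4e-12). Fed and fasted livers did not overlap in either genotype. Sf3b4 rose by 0.23 and 0.68, Sf3b3 by 0.31 and 0.60 and Sf3a2 by 0.20 and 0.48 in CTRL and AAKO, and Sf3b2 (0.20) and Sf3b5 (0.19) rose in AAKO. Sf3a1 fell by 0.36 and 0.59 and Sf3b6 by 0.18 and 0.42, the latter on its brightest probe.
Of the Snrp genes 7 fell and 1 rose in CTRL, and 7 fell and 2 rose in AAKO. Snrpd2 went from 4.56, 4.64 and 4.76 in fed CTRL to 3.91, 4.16 and 4.29 in fasted CTRL and fell by 0.52 (± 0.06, adjusted p = 4.6e-08), and by 0.89 in AAKO (± 0.06, adjusted p = 1.1e-13). Snrpd3 fell by 0.52 and 1.09, Snrpa by 0.46 and 0.52, Snrpn by 0.42 and 0.56, Snrpg by 0.36 and 0.30 and Snrpd1 by 0.31 and 0.48. Without AAKO fasted replicate 3, Snrpn stood at -0.39 in AAKO (adjusted p = 0.0037). The ranges of Snrpd1, Snrpd2, Snrpd3 and Snrpg stood apart from fed in both genotypes, which was not counted for all genes. Snrpc fell by 0.19 in CTRL without a call in AAKO, and Snrpf by 0.25 in AAKO without a call in CTRL. The fasting interaction was called for neither, so these are not differences between genotypes. Snrpb2 rose by 0.25 and 0.52, and Snrpb rose in AAKO by 0.26.

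CL316243 against fed gave opposite balances in the genotypes: 8 rose and 12 fell in CTRL, and 24 rose and 1 fell in AAKO. Here too the fed livers belonged to the other experiment. Over all genes 10.4% rose and 12.9% fell in CTRL, and 15.7% rose and 15.6% fell in AAKO. Srsf3 fell in CTRL by 0.46 (± 0.11, adjusted p = 0.003) and rose in AAKO by 0.58 ± 0.11 (adjusted p = 0.00017), from fed values of 1.94, 2.09 and 2.22 in CTRL and 1.48, 1.79 and 1.91 in AAKO. Srsf2 fell by 0.49 in CTRL, with every CL316243 liver below every fed liver, and rose by 0.28 in AAKO. Srsf7 fell by 0.28 and rose by 0.27. Srsf5 rose in both genotypes, by 0.44 and 0.55, and Srsf1 and Srsf6 rose by 0.35 each in AAKO without a call in CTRL. On all arrays the CL316243 interaction was called for neither Srsf1 nor Srsf6. Srsf11 rose by 0.43 in CTRL, and stood at 0.28 (adjusted p = 0.10) without CTRL fed replicate 1.

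Sf3b3, a scaffold of SF3b, rose in both genotypes after CL316243, by 0.29 in CTRL and by 0.63 ± 0.05 in AAKO (adjusted p = 3.9e-10). Sf3b1 rose by 0.24 and 0.59 ± 0.08. Sf3a1 went from 1.68, 1.85 and 2.04 in fed CTRL to 1.33, 1.41 and 1.47, apart, and fell by 0.44 (± 0.07, adjusted p = 1.2e-05), while AAKO stood at -0.02. Sf3b6 fell by 0.33 and Sf3b2 by 0.28 in CTRL, and Sf3a3 (0.52), Sf3a2 (0.39), Sf3b4 (0.39) and Sf3b5 (0.28) rose in AAKO.
Hnrnpr rose by 0.67 ± 0.13 in CTRL (adjusted p = 0.00036) and by 0.35 in AAKO, and Hnrnpl by 0.49 ± 0.06 (adjusted p = 1.4e-06) and 0.27. Hnrnph2 rose by 0.28 and 0.58 and Hnrnpa0 by 0.33 and 0.44. Hnrnpul1 (0.52), Hnrnpd (0.50), Hnrnpa2b1 (0.34), Hnrnpm (0.19) and Hnrnph1 (0.18) rose in AAKO. Hnrnpc (-0.33) and Hnrnpa3 (-0.24) were lower in CTRL, and Hnrnpll (-0.20 ± 0.08, adjusted p = 0.042) was lower in AAKO. Hnrnpdl stood at -0.66 in CTRL and 0.71 in AAKO, and at 0.12 (adjusted p = 0.46) and 0.67 (adjusted p = 3.1e-06) without the outlying array.
In CTRL the Snrp genes that fell were Snrpd1 (-0.38), Snrpa (-0.37), Snrpd3 (-0.21) and Snrpb (-0.19). In AAKO, Snrpb2 and Snrpc rose by 0.24 and Snrpg by 0.18.

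Fasted and CL316243 livers were compared directly within the first experiment. In CTRL 13 members were higher and 14 lower in fasted livers, with 19.2% and 17.6% of all genes called, and in AAKO 13 were higher and 26 lower, with 26.1% and 33.8%. The median member stood at 0.00 in CTRL and -0.24 in AAKO, against 0.01 and -0.08 for all genes. The CTRL split moved with the scaling: it was 17 and 7 in the authors' deposited table, 16 and 10 with quantile normalization and 9 and 16 with median scaling. All genes moved too, with 5437 higher and 3655 lower, 4659 and 4498, and 3522 and 5508 under those settings, against 4633 and 4247.
In AAKO, Srsf1 was lower in fasted livers by 1.41 log2 units (-1.41 ± 0.10, adjusted p = 7.4e-14), with 0.27 to 0.70 against 1.66 to 2.16. Snrpd3 (-1.19 ± 0.08, adjusted p = 3.5e-14), Hnrnpul2 (-1.02), Srsf6 (-0.82), Snrpd2 (-0.82) and Srsf2 (-0.75) were next, and their ranges stood apart, which was not counted for all genes. Hnrnpdl (1.28), Srsf7 (0.77), Hnrnpd (0.71), Hnrnpa0 (0.59) and Srsf5 (0.57) were higher in fasted AAKO livers, also apart.
In CTRL the fasted livers were higher for Hnrnpa1 (1.01 ± 0.14, adjusted p = 1.2e-06), with 2.15 to 2.68 against 1.07 to 1.64, for Hnrnpd (0.89 ± 0.11) and for Srsf3 (0.47). Hnrnpdl stood at 2.06, and at 1.28 without the outlying array. Snrpd2 (-0.46), Srsf1 (-0.45), Srsf4 (-0.39) and Snrpn (-0.38) were lower. All these comparisons share groups with the ones above, so their counts are not independent.

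Probes of the same gene did not always move together. Of the 51 genes 36 had more than 1 tested probe. For 3 of these 36 (8.33%) the fasted genotype comparison called probes in both directions, against 545 of 7962 genes on the whole array (6.85%), so the members were near the background. Probe p-values are adjusted over 36550 probes.
For Hnrnpa1 the brightest probe was lower in fasted AAKO (-0.58), while the probe upstream was higher by 1.43 ± 0.12 (adjusted p = 2e-11) and the one downstream by 1.33 ± 0.13 (adjusted p = 5.7e-10). Sequences of the 3 probes are those shown at the start. After CL316243 all 3 stood at 0.24 to 0.37 and none was called.
For Sf3b1 the 3 upstream probes rose by 0.36 to 0.45 in fasted AAKO and the most downstream one fell by 0.23 (± 0.09, adjusted p = 0.038). For Hnrnpl the first probe rose by 0.80 ± 0.16 (adjusted p = 8.1e-05), the brightest and last one fell by 0.25, and the 2 between stood at 0.15 and -0.06. Of 19 genes called on the brightest probe and with others tested, 13 had all probes of the same sign, such as Snrpd3 (second probe -0.61), Srsf6 (-0.60), Srsf5 (0.57 and 0.58) and Snrpb (0.31 to 0.39 on all 3). The other 6 were Hnrnpa1, Sf3b1, Hnrnpl, Hnrnpul2, Sf3a2 and Sf3b6, the last 3 with an opposite probe that was not called. Shares over all genes were computed neither for the 13 of 19 nor for the next count. In this comparison 21.3% of all genes were called higher and 28.1% lower. Of 17 genes not called on the brightest probe and with others tested, 13 had another probe that was called. Among them were Snrpn at 0.81 (adjusted p = 9.7e-06) on its first probe, Hnrnpll at 0.75, Sf3b3 at 0.57, Hnrnpul1 at 0.42, Hnrnpu at 0.37 ± 0.09, Hnrnph3 at -0.42 and Hnrnpc and Hnrnpa2b1 at -0.41. The brightest probes of Snrpn and Hnrnpu stood the other way, at -0.23 and -0.36, without a call.

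**Figure D5:**
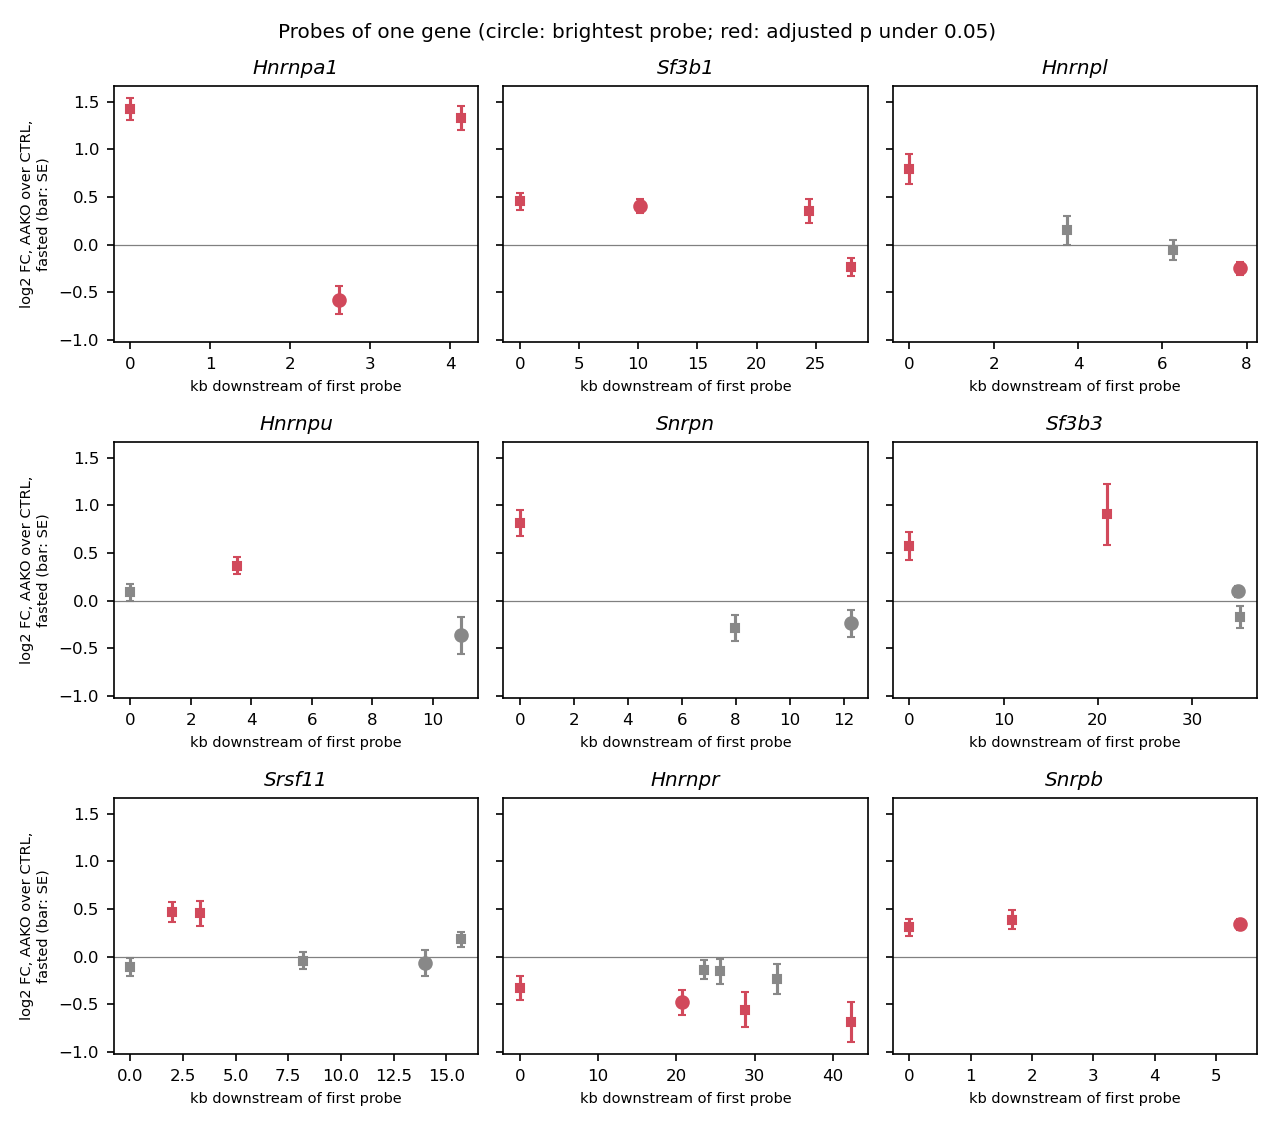
For 9 genes, each tested probe is placed by its distance in kb downstream of the gene's first probe, with the AAKO over CTRL log2 fold change in fasted mice and its SE; circles are the brightest probes, squares the others, and red marks an adjusted p under 0.05. The brightest Hnrnpa1 probe lies at -0.58 between 2 others at 1.43 and 1.33, while the 3 Snrpb probes lie at 0.31 to 0.39.

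Over the 12 comparisons 15 of the 36 genes had probes called in both directions, a share that was not computed for all genes. For the fasted genotype comparison alone it was 8.33% of members and 6.85% of all genes. Snrpd3 fell on its brightest probe with fasting in CTRL (-0.52) and rose on its second (0.60). Srsf2 in fasted against CL316243 CTRL livers stood at 0.32 and -0.55. Sf3a3 and Sf3b3, in fasted against CL316243 AAKO livers, and Sf3b6, with fasting in AAKO, were also among them, but their most positive probes were well above background on only 21, 24 and 18 of 36 arrays, so no fold is given. With fasting in AAKO, Hnrnpa2b1 ran from -0.69 to 0.24, Hnrnpf from -0.29 to 0.46, Hnrnpr from -1.01 to 0.50 and Snrpn from -0.66 to 0.83. Hnrnph3 and Hnrnpm, in fasted against CL316243 CTRL and AAKO livers, and Srsf11, after CL316243 in AAKO, were the remaining such genes. The probe nearest the 5′ end was above the last one in 19 of 36 genes (52.8%) for the fasted genotype difference, against 55.1% of 7803 genes. For the fed genotype difference, in which no member was called, it was 25 of 36 (69.4%) against 3978 of the 7803 genes, and after CL316243 17 of 36 (47.2%) against 47.6%.

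Promoters were read from RefSeq (GRCm38.p6) as the 250 bases before each gene's start, present for 46 of the 52 members. A core of ETS family binding sites, CCGGAAG on either strand, occurred in 15 of 46 member promoters (32.6%) against 7.83% of 27025 genes. By family it was in 6 of 7 SF3, 4 of 11 Srsf, 3 of 10 Snrp and 2 of 18 Hnrnp promoters. Member promoters were also richer in G and C, with a median of 60.6% against 52.4%, which was not allowed for. A match is a description of letters and was not tied to any factor. The promoters of 3 SF3 genes and of Srsf7 are shown because SF3 genes rose together in AAKO after CL316243 and Srsf7 had the largest genotype rise in fasted mice; capitals mark matches to CCGGAAG, read on either strand. They lie at chr11:4160104-4160353 (Sf3a1, plus strand), chr4:124714611-124714860 (Sf3a3, plus strand), chr12:4817358-4817607 (Sf3b6, plus strand) and chr17:80207306-80207555 (Srsf7, minus strand).
Sf3a1 promoter: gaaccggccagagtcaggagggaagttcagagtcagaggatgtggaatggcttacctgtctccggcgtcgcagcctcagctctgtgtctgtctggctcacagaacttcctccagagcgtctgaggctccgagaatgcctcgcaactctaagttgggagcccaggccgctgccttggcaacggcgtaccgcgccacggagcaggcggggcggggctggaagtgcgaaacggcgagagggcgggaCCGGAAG
Sf3a3 promoter: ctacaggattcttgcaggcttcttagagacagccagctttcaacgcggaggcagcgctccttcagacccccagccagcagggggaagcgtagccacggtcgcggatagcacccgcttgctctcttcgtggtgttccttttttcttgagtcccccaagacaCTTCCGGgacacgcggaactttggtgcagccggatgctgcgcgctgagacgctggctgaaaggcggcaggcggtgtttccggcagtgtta
Sf3b6 promoter: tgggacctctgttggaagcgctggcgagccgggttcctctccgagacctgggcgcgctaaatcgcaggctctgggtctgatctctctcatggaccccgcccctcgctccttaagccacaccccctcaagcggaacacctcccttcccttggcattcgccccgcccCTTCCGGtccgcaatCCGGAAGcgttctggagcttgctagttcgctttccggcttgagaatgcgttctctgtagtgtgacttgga
Srsf7 promoter: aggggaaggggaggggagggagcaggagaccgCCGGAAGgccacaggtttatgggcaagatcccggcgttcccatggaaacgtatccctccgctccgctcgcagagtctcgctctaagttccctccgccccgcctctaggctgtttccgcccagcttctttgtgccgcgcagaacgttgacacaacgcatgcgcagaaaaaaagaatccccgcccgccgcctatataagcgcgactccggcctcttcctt
Other letters were found at shares closer to those of all promoters. The cAMP response element TGACGTCA was in 2 member promoters (4.35% against 1.77%), the E-box CACGTG in 4 (8.70% against 6.86%), the NF-Y box CCAAT in 22 (47.8% against 37.5%) and the heat shock pair GAANNTTC in 6 (13.0% against 7.73%). TATAAA was in 6 (13.0% against 14.3%), and neither TTATGTAA, bound by PAR-bZIP factors (0.977% of all), nor the nuclear receptor repeat AGGTCANAGGTCA (0.0407% of all) was in any. Each was searched on both strands.

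The rest of the splicing machinery was read through gene lists outside the name rule. In fed mice 0 genes of any list were called by genotype. The counts below stand against 21.3% of all genes higher and 28.1% lower in fasted AAKO, and 13.5% and 11.3% after CL316243, and no list was tested against all genes. Factors that recognise the branch site and 3′ splice site were higher in AAKO for 7 of 13 and lower for 1 after fasting, and higher for 10 of 13 and lower for 0 after CL316243, with medians of 0.16 and 0.34. Sf1, the branch point binding protein that precedes U2, rose by 1.07 ± 0.09 in fasted AAKO (adjusted p = 2.3e-11), Rbm17 rose by 0.73 and Rbm5 fell by 0.45. After CL316243 U2af1, the small U2AF subunit that reads the 3′ splice site, rose by 0.54 ± 0.08 (adjusted p = 4.4e-06) and Rbm10 by 0.48.
Against the same shares of all genes (21.3% higher and 28.1% lower after fasting, 13.5% and 11.3% after CL316243), 6 of 27 snRNP proteins outside the rule rose and 7 fell in fasted AAKO (Rnpc3 0.61, Luc7l 0.56, Zmat5 -0.996, Ppih -0.68), and 8 rose and 1 fell after CL316243 (Prpf6 0.61, Prpf3 0.59, Luc7l3 -0.27). Of 18 PRP19 complex genes, which activate the spliceosome, 7 rose and 5 fell in fasted AAKO (Rbm22 0.63, Snw1 0.54, Ppil1 -1.25, Ctnnbl1 -0.32). After CL316243 8 rose and 1 fell (Plrg1 1.21, Ppil1 0.36, Ctnnbl1 -0.18). Late helicases and release factors, 13 in all, had 3 higher and 2 lower after fasting (Tfip11 0.61, Cdc40 0.51, Slu7 -0.69) and 7 higher and 0 lower after CL316243 (Gcfc2 0.75, Dhx38 0.44).

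SR-related proteins rose in 10 of 19 and fell in 2 in fasted AAKO, where 21.3% of all genes rose and 28.1% fell, with Srek1 and Bclaf1 at 0.72 and 0.64 and Scaf4 and Srrt at -0.60 and -0.51. After CL316243, with 13.5% and 11.3% of all genes called, 6 rose and 0 fell, with Srek1 at 0.59 and Srrt at 0.46. The kinases that phosphorylate SR proteins and their import factor were higher in 4 of 9 tested and lower in 0 after fasting (Dyrk1a 0.67, Clk4 0.57). After CL316243 3 were higher and 1 lower (Clk4 0.37, Prpf4b 0.26, Srpk2 -0.34). The assembly factors of the SMN complex were mixed, with 3 of 15 higher and 4 lower after fasting (Ddx20 0.85, Smn1 0.39, Gemin2 -0.74, Tgs1 -0.49). After CL316243 4 were higher and 3 lower (Gemin8 0.71, Smn1 0.50, Gemin4 -0.52, Gemin2 -0.44).
LSm genes, whose proteins form rings like those of Sm, had 5 of 13 higher and 4 lower after fasting (Lsm8 0.62, Lsm14a 0.47, Lsm7 -0.65, Lsm11 -0.58) and 1 higher and 2 lower after CL316243 (Lsm4 0.20, Lsm11 -0.76, Lsm10 -0.57). The exon junction complex had 3 of 9 higher and 2 lower after fasting (Casc3 0.60, Eif4a3 0.37, Magohb -0.57, Upf3a -0.13), and 3 higher and 0 lower after CL316243 (Eif4a3 0.48, Magoh 0.47). Of 36 tested tissue-selective and other regulators 14 were higher and 12 lower in fasted AAKO (Ptbp2 1.60, Mbnl2 1.59, Khdrbs3 -1.54, Tardbp -1.24). After CL316243 7 were higher and 3 lower (Pspc1 1.09, Mbnl2 0.85, Celf2 -0.73, Khdrbs3 -0.51).

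Markers of other cell types were also called by genotype in fasted livers, where 21.3% of all genes were called higher and 28.1% lower. No marker list was tested against all genes. Of the neutrophil markers 4 of 7 were higher in AAKO, with summed signal (1 is the array's 75th percentile) of 7.72 to 85.4 against 2.25 to 55.5, and 4 of 7 cycling cell markers, with 7.09 to 9.55 against 5.94 to 7.44. Hepatocyte markers, which define the labelled tissue, summed to 2654 to 2872 in AAKO fasted and 2809 to 3009 in CTRL fasted livers, with 2 of 6 higher and 3 lower. Endothelial markers had 2 of 5 higher, stellate 1 of 5 higher, cholangiocyte 2 of 4 lower, erythroid 1 of 3 lower, lymphocyte 1 of 5 lower, adipocyte 1 of 4 each way and Kupffer cell 0 of 6.
After CL316243 2 of 6 hepatocyte and 1 of 5 endothelial markers were higher in AAKO, and 2 of 7 cycling cell and 1 of 4 cholangiocyte markers were lower. Over all genes 13.5% were called higher and 11.3% lower there. In fed mice 0 of all these markers were called. Markers were also called between conditions. Over all genes, CL316243 against fed called 10.4% higher and 12.9% lower in CTRL, and 15.7% and 15.6% in AAKO. Fasting against fed called 20.9% and 22.4% in CTRL, and 27.8% and 35.7% in AAKO. Fasted against CL316243 livers gave 19.2% and 17.6% in CTRL, and 26.1% and 33.8% in AAKO. For CL316243 against fed, 6 of 6 Kupffer cell markers were lower in both genotypes, with 4 and 3 of 5 endothelial, 2 and 3 of 3 erythroid and 2 of 5 stellate markers lower in CTRL and AAKO. For fasting against fed, 3 and 4 of 6 Kupffer cell, 1 and 3 of 3 erythroid, 2 of 4 cholangiocyte and 3 and 2 of 7 cycling cell markers were lower in CTRL and AAKO, and 4 of 7 neutrophil markers were higher and 1 lower in AAKO. In fasted against CL316243 livers 6 of 7 cycling cell markers were lower in CTRL, 3 of 5 endothelial markers were higher in both genotypes and 3 of 7 neutrophil markers were higher in AAKO. Of 6 hepatocyte markers, CL316243 against fed called 0 higher and 2 lower in CTRL and 0 either way in AAKO. Fasting against fed called 2 higher and 1 lower in CTRL, and 2 higher and 3 lower in AAKO. Fasted against CL316243 livers gave the same hepatocyte counts as fasting against fed in each genotype. The part of all these markers in the splicing factor differences was not tested.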

How the data were processed

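Liver RNA of 36 mice was read on 1 Agilent array each (design 074809), read by the authors with Agilent's Feature Extraction software, version 10.10.1.1. The deposited intensity is the processed signal, from which a spatial background had been subtracted and a multiplicative trend removed, per the file headers. The authors also deposited a table of log2 values for 36898 probes. Each of its 36 columns correlated best with its own array (r 0.99957 to 0.99981), which gives a log2 scale and the scanner's direction, while its centring and the filter behind its probes are not given in the sources used here. Its column medians were 6.91 (CTRL fed), 6.93 (AAKO fed), 6.97 (CTRL fasted), 7.01 (AAKO fasted), 6.91 (CTRL CL316243) and 6.88 (AAKO CL316243), and it was used as an alternative.

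From 59305 non-control spots per array, outlier spots (2701 over all arrays, 0.127%) were left out. Log2 processed signal minus log2 of the array's 75th percentile was averaged per probe, and the brightest probe was kept per gene name. Genes well above background on at least 5 of 6 arrays of a group were tested in limma 3.58.1 (R 4.3.3) with 6 group means and wash batch as terms, over 24102 genes with Benjamini-Hochberg adjustment. The 2 wash batches each held every group. Nothing says that mice were pooled. The p-values set each difference against the spread between mice within groups, taken over all 6 groups, and the number of arrays limits their precision. The script was tested on simulated data.

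The members and gene lists were chosen with earlier results of these data known. Named genes were, per comparison and family, up to 3 called with the largest rise and 3 with the largest fall, a fixed set (Srsf1, 2, 3, 5, 6 and 7, Hnrnpa1, a2b1, d, k and u, Sf3a1, Sf3b1, Snrpa, Snrpb, Snrpd1, Snrpn), and members with probes called both ways. The other members were named to account for each. From pathway lists at most 2 called genes each way were named. One probe named Gm5803 in the files now carries an hnRNP pseudogene name and lay outside the rule.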

Additional observations from a re-analysis of the deposited data

Results flagged for a closer look

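Single livers stood apart from the other 5 of their group for 16 of the 216 gene and group pairs looked at (36 genes in 6 groups), by a gap to the nearest value above Dixon's critical share of the group's range. Chance gives about 1 such array in 20 groups. The farthest was the Hnrnpdl probe in CTRL CL316243 replicate 5 at -1.64, the only array of that group below 2.94. In CTRL fed replicate 1, Hnrnpr read 0.36 and Hnrnpd 1.84, both the lowest of their group. CTRL CL316243 replicate 1 was lowest for Hnrnpa0 (2.60) and Snrpg (4.08) and highest for Srsf1 (2.08). CTRL fasted replicate 5 was lowest for Sf3a3 (2.53) and Snrpd1 (2.29), and AAKO fasted replicate 3 for Hnrnpa2b1 (4.36) and Snrpn (0.11). AAKO CL316243 replicate 3 was lowest for Hnrnpk (2.22) and Snrpb (4.34), replicate 6 for Sf3b1 (2.60) and Snrpb2 (2.10), and replicate 1 for Sf3a1 (1.42). AAKO fed replicate 4 was highest for Hnrnpu (3.61).

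The genotype difference changed between fed and fasted mice, by an interaction term in limma, for the genes named here. It was more positive in fasted mice for Srsf7 (1.15), Sf3b4 (0.45), Hnrnpd (0.43), Sf3b1 (0.43), Hnrnpab (0.41), Snrpb (0.39), Srsf4 (0.38), Srsf5 (0.33), Sf3b3 (0.29), Hnrnpa0 (0.28) and Snrpb2 (0.27). It was more negative for Hnrnpa1 (-0.70), Srsf1 (-0.64), Hnrnpr (-0.57), Snrpd3 (-0.57), Hnrnpul2 (-0.49), Srsf6 (-0.42) and Snrpd2 (-0.37). Over all 51 members the interaction called 12 up and 9 down, and 13 and 13 without CTRL fasted replicate 2.

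Between fed and CL316243 mice the genotype difference became more positive for Srsf3 (1.05), Srsf2 (0.77), Hnrnpd (0.60), Sf3b4 (0.55), Sf3a3 (0.54), Srsf7 (0.54), Snrpd1 (0.47), Snrpa (0.44), Sf3a2 (0.43), Hnrnpab (0.30) and Snrpg (0.25). Fed mice belong to the other experiment, which cannot be told apart from condition in either of these terms.

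Within the first experiment the genotype difference of fasted mice was below that of CL316243 mice for Srsf2 (-1.07), Srsf3 (-1.005), Srsf1 (-0.97), Hnrnpa1 (-0.95), Snrpd3 (-0.88), Hnrnpul2 (-0.75), Sf3a1 (-0.65), Snrpd1 (-0.64), Sf3b6 (-0.63), Snrpa (-0.51), Hnrnpa3 (-0.48) and Sf3a3 (-0.38). It was above for Srsf7 (0.60) and Srsf4 (0.35).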

How the results depend on the processing

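Of 8950 recomputed values of named differences, 484 were no longer called and 14 turned sign, all 14 with the mean over all tested probes of a gene, where probes that move differently are averaged, including dim ones of Sf3b6 and Sf3a3 that were well above background on 18 and 21 of 36 arrays. For fasted AAKO against CTRL these were Hnrnpa1 (0.72) and Sf3b6 (0.030); for the fasting interaction Hnrnpa1 (0.66); for the fasted minus CL316243 genotype difference Hnrnpa1 (0.44) and Sf3a3 (0.011). For fasting against fed they were Hnrnpa2b1 (-0.22) and Sf3b6 (0.35) in AAKO and Sf3b6 (0.21) and Snrpd3 (0.042) in CTRL. For fasted against CL316243 they were Hnrnph3 (0.049), Snrpd3 (0.28) and Srsf2 (-0.11) in CTRL and Sf3a3 (0.27) and Sf3b6 (0.078) in AAKO.

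Single wash batches, which hold fewer mice, gave fewer called members. In batches 1 and 2 there were 16 and 15 for the fasted genotype comparison, 7 and 4 after CL316243, 15 and 10 for CL316243 against fed in AAKO, 6 and 8 in CTRL, 13 and 15 for fasted against CL316243 in CTRL, 11 and 5 for the fasting interaction and 2 and 4 for the CL316243 interaction. Batch 1 gave 19 for fasting against fed in CTRL and batch 2 gave 12 for the fasted minus CL316243 difference. Leaving out 1 array at a time gave 0 to 0 (fed genotype), 26 to 30 (fasted), 22 to 27 (CL316243), 29 to 34 and 38 to 38 (fasting against fed, CTRL and AAKO), 16 to 21 and 20 to 26 (CL316243 against fed), 22 to 27 and 37 to 40 (fasted against CL316243), 18 to 26, 13 to 20 and 18 to 23 (fasting interaction, CL316243 interaction, difference). In all other settings counts stayed within 1.5 times the main count. The counts in this paragraph are of members only, and counts over all genes are not set beside them.

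Replicate numbers are shared by the groups but do not pair the mice: deviations of same-numbered mice correlated at -0.305 to 0.361 (median 0.003, 16 of 90 pairs over 0.1), against a median of -0.005 for other numbers (90 of 450 over 0.1). A fit with the replicate block called 12 higher and 16 lower members by genotype after fasting, 24 and 1 after CL316243 and 0 in fed mice. The block gave 13 and 19, and 17 and 21, for fasting against fed in CTRL and AAKO. Changes in signal smaller than the spread between arrays are not resolved, and Srsf12, not above background, has no measured level.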
